A study of Drosophila melanogaster with 12 samples.

Results

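Circular RNAs (circRNAs) of mature Drosophila melanogaster egg chambers were compared between day 12 and day 2. The set is every circRNA in the authors' table, 2747 of the 12909 RNAs listed in the series, with no selection on level or change. The other 10162 are transcripts of the linear RNA libraries. All groups come from ovaries of the wild-type Oregon R stock at stage 14, sampled at time points labelled day 2 or day 12, with 3 biological replicates for circRNA at each day. The labels name no transgene, mutant allele or drug, and they do not say from which event the days were counted, how many animals a library holds, or whether linear RNA was removed from the circRNA libraries. Nothing in the labels says that the replicates came from separate cohorts of flies.

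A circRNA forms when the splicing machinery joins the end of an exon to the start of the same exon or of one upstream, a step called back-splicing. The product has no free ends, so exonucleases that remove linear messages do not attack it, and circRNAs are known to be long-lived. They have been reported to accumulate with age in the fly nervous system. The oocyte of a stage 14 follicle is largely silent in transcription and lives on RNA laid down earlier, mostly by the nurse cells. Its RNA pool therefore depends on what is kept and what is degraded.

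The table identifies circRNAs by number and gives 1 value per day, a mean over 3 libraries in the authors' own unit, with no SD. It ties no number to a gene or to a position, so circRNAs are called here by their rank in abundance, and the labelled tissue could not be checked against marker genes in it. The values nevertheless keep the trace of single reads. All 2747 day 12 values were whole multiples of 17.8, and the lowest was 3 such steps. All 2747 day 2 values were sums of whole numbers of that step and of another of 19.1, in a single way for each, and the lowest was 1 of the former plus 2 of the latter. Read as scaled reads with 1 added in each library, this places 1 day 2 library on the first step and a pair on the second. In what follows, a read is 1 step more than the floor, which is the lowest value of a day, and rests on that reading. The reads were 60601 at day 12 and 50112 at day 2, of which 19996 came from the single day 2 library and 30116 from the pair. Per library this is 20200 at day 12, 19996 in the single day 2 library and 15058 as the mean of the pair.

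The circRNA numbers fall into runs that match this split, although they took no part in it. Each of numbers 1 to 1082 had reads in the day 2 pair. Each of numbers 1083 to 1646 had reads in the single day 2 library, and no circRNA with a higher number did. Numbers 1647 to 1885 all had reads in the pair again, and the 862 from 1886 to 2747 had none at day 2. The ends of the runs were set by these reads, so part of this holds for any numbering. That part is the pair reads of the first run and the lack of reads past 1646 and 1885. The lengths of the runs, and the lack of gaps from 1083 to 1646 and from 1647 to 1885, were not fixed in this way.

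The pool of circRNAs was similarly uneven on the days compared, with few abundant circRNAs and a long tail. The deposited median was 93.0 at day 2 and 89.2 at day 12, and the 90th percentile was 516 and 589. At the top stood values of 44552 and 53831. The level fell steeply with rank: the circRNA at rank 10 of its day had 967 reads at day 2 and 1117 at day 12. At rank 100 there were 85 and 100 reads, at rank 500 there were 10 and 13, and at rank 1000 there were 3 and 4. Over both days 533 circRNAs rested on 1 read, 394 on 2 and 312 on 3. At the other end, 17 circRNAs had 1000 reads or more and held 38.05% of the reads at day 2 and 37.98% at day 12.

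The most abundant circRNAs held nearly the same share on the days compared. The 10 highest of each day held 29.0% of the reads at day 2 (95% exact binomial interval 28.6 to 29.4%) and 28.8% at day 12 (28.4 to 29.2%). Such intervals cover counting error only. The 100 highest held 67.5% and 67.1%, and the 500 highest 91.2% and 90.3%. It took 36 circRNAs to reach 50% of the reads on each day, and 445 at day 2 and 488 at day 12 to reach 90%. From the deposited values themselves, which include the added reads, the 10 highest held 24.95% and 25.4% and the 100 highest 58.5% and 59.5%.

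**Figure D1:**
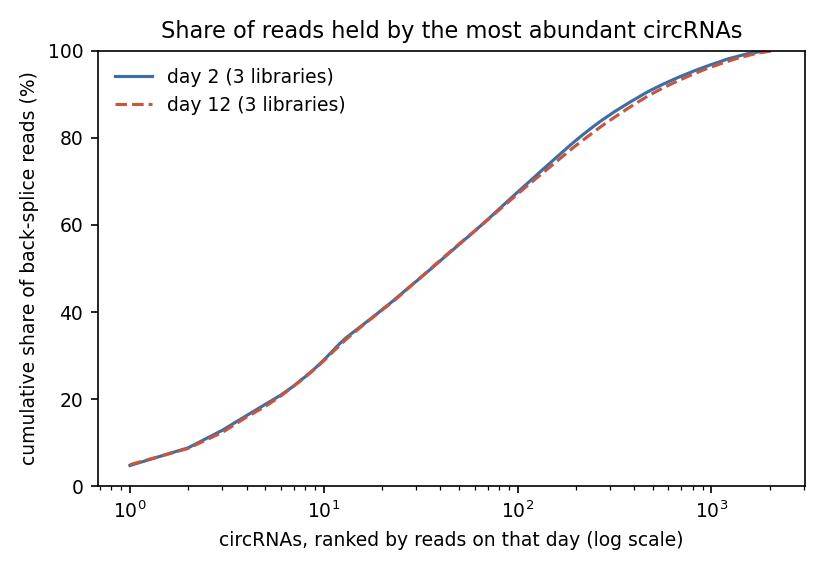
Cumulative share of back-splice reads in % (vertical axis) against the number of circRNAs, ranked by reads within each day (horizontal log axis), with day 2 as a solid and day 12 as a broken line. The lines lie almost on each other: both pass 50% at 36 circRNAs, and the day 12 line reaches 90% slightly later, at 488 against 445.

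The same circRNAs led on both days. The 20 highest were the same set at day 2 and day 12, as were 8 of the 10 highest, 88 of the 100 highest and 407 of the 500 highest, which is 88.0% and 81.4% of each of the latter lists. The most abundant circRNA was the same one on both days, at 44552 at day 2 and 53831 at day 12, or 4.78% and 4.97% of the reads. That at rank 2 by the mean of both days stood at 38163 and 39789, and that at rank 3 at 37473 and 38094. The log2 ratios of these 3 were 0.27, 0.06 and 0.02. The circRNA at rank 4 went from 31531 to 40538, that at rank 5 from 19625 to 26585 and that at rank 6 from 19397 to 25818. Those at ranks 7, 9 and 10 went from 19789 to 24765, from 18267 to 21143 and from 17741 to 21447. Thus 9 of the 10 had the higher deposited value at day 12, and 7 of 10 once each value was taken as a share of its day's total. None of the 10 was called: in the authors' deposited table their p ran from 0.123 to 0.951 before adjustment and from 0.910 to 0.975 after it.

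The circRNA at rank 8 went the other way. It stood at 24002 at day 2 and 17040 at day 12, which took it from rank 5 to rank 12, with a log2 ratio of -0.49. Its share of the reads was 2.42% in the single day 2 library and 2.66% in the pair, against 1.57% at day 12. The intervals of the day 2 shares, 2.21 to 2.64% and 2.48 to 2.85%, overlapped each other and lay above that of day 12, 1.47 to 1.67%. It had the lowest p of the 10, 0.123 in the authors' deposited table, which did not pass the threshold.

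Only 3 circRNAs were called, by an adjusted p under 0.05 in the authors' deposited table. Of the 2747, 1 was higher (0.0364%) and 2 were lower (0.0728%) at day 12. All 3 lay outside the 10 most abundant circRNAs, at ranks 62, 102 and 142, and each changed more than 2-fold. The follicles were measured in bulk, so fewer cells of a type and less of an RNA per cell cannot be told apart.

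The circRNA with the lowest p, dme_circ_996, rose from 264 at day 2 to 2248 at day 12 (log2 ratio 3.09, adjusted p = 0.00014 in the authors' deposited table). That moved it from rank 466 to rank 84. Behind these values stood 2 reads in the single day 2 library, 9 in the day 2 pair and 123 in the day 12 libraries together. Both parts of day 2 were thus low. As a share of reads it was 9.25-fold higher at day 12, with a 95% exact interval of 4.99 to 19.0 for counting error. How the 123 reads were spread over the 3 day 12 libraries cannot be read from the steps.

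The circRNAs that fell, dme_circ_623 and dme_circ_973, did so to a like extent. dme_circ_623 went from 4362 to 1213 (log2 ratio -1.85, adjusted p = 0.0459 in the authors' deposited table), and from rank 36 to rank 152. It had 114 reads in the single day 2 library, 119 in the pair and 65 at day 12, or 0.570%, 0.395% and 0.107% of the reads. dme_circ_973 went from 2742 to 767 (log2 ratio -1.84, adjusted p = 0.0459 in the authors' deposited table), and from rank 59 to rank 220. It had 35 reads in the single day 2 library, 108 in the pair and 40 at day 12, or 0.175%, 0.359% and 0.0660% of the reads. Its share in the single library was thus below that of the pair, with intervals of 0.122 to 0.243% and 0.294 to 0.433% that did not overlap, and both were above day 12. The log2 ratio of dme_circ_973 was -1.33 against the single library and -2.04 against the pair, and that of dme_circ_623 was -2.34 and -1.51. For dme_circ_996 these ratios were 3.81 and 2.84. Against either part of day 2, each of the 3 kept its direction. The calls rest on these same libraries, and both parts were set against the same day 12 reads. The kept direction is therefore not a replication of the calls. It was also common: of the wider lists of 43 higher and 18 lower circRNAs given below, 43 and 17 kept theirs against both parts.

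**Figure D2:**
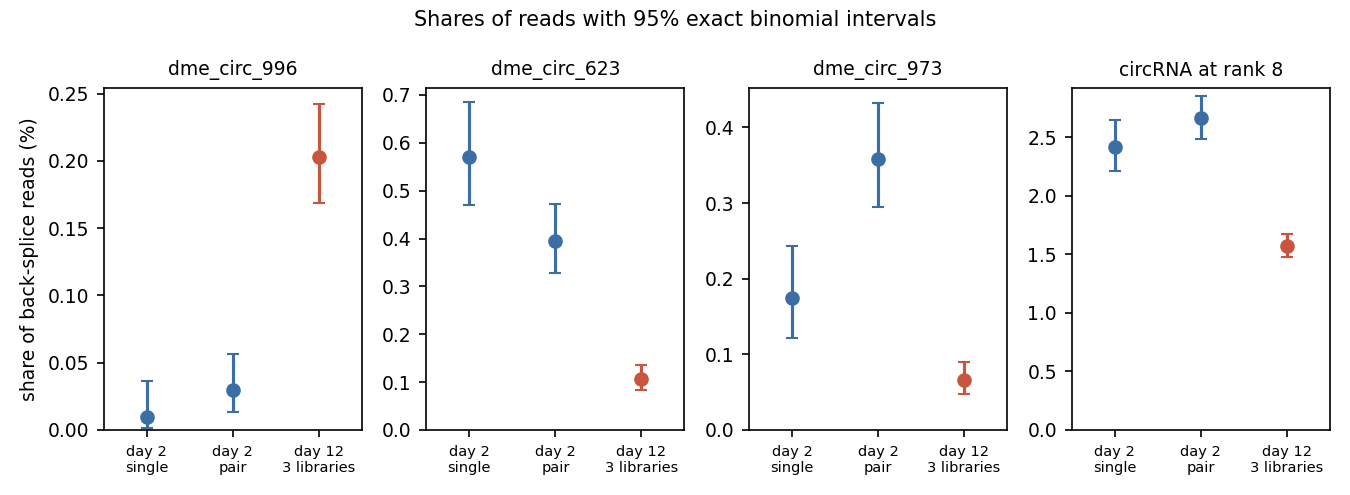
Share of back-splice reads in % (vertical axes, each from 0) of the 3 called circRNAs and of the circRNA at rank 8, in the single day 2 library, the day 2 pair and the 3 day 12 libraries. Points are shares and bars are 95% exact binomial intervals for counting error; in each panel the day 12 point lies outside both day 2 intervals.

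Past these 3, the adjusted p jumped to 0.910. Before adjustment, 43 circRNAs were higher (1.57%) and 18 lower (0.655%) at day 12 with a p under 0.05 in the authors' deposited table. Uniform p-values over the whole table would give 137, but the 61 cannot be judged against that number. The 2013 circRNAs with fewer than 12 reads had no p under 0.05 in the authors' deposited table. The median p was 0.607. The 43 had a median log2 ratio of 2.09 and 33 reads in the median; for the 18 the median size was 1.69 with 59.5 reads, in the direction of day 2. Of the 61, 52 were in class 5 and 9 in class 4, where class 1 to class 5 are 5 classes of equal size by the mean of both days, from the lowest. The lowest log2 ratio among the 100 most abundant was that of dme_circ_623, and the highest was 1.04, of the circRNA at rank 63, at 1818 and 3729, with a p of 0.00591 before and 0.910 after adjustment in the authors' deposited table.

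Few of the listed circRNAs had the reads for a low p. The lowest number of reads over both days with a p under 0.05 was 12, and 2013 circRNAs, 73.3% of the table, had fewer. With 4 to 9 reads the lowest p was 0.108, and with 1 read the p lay between 0.761 and 0.826. The called circRNAs had at least 134 reads, and 2608 circRNAs had fewer than that. Below 12 reads, a difference between the days was not detectable at this depth even before adjustment. The limit for a call lay higher: with up to 40 reads the lowest p in the authors' deposited table was 0.00152 before adjustment, and none was called.

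Less than 50% of the listed circRNAs were read on both days, and nearly all of the reads belonged to these. Of 2747, 1206 (43.9%) had reads on both days, 679 at day 2 only and 862 at day 12 only. The 1206 made up 64.0% of the 1885 read at day 2 and 58.3% of the 2068 read at day 12. They held 96.6% of the day 2 reads and 95.7% of the day 12 reads. Those of day 2 alone had a median of 2 reads and a highest of 18, and 254 of them had 1 read. Those of day 12 alone had a median of 2 and a highest of 27, and 279 had 1 read.

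Detection on 1 day went with low reads. With at least 5 reads on either day, 945 of 1165 circRNAs were read on both days, and with at least 10 reads 637 of 671, or 94.9%. With at least 30 reads all 298 were. The other 34 with at least 10 reads were 8 at day 2 and 26 at day 12. A pair of circRNAs shared the highest value among those at the floor of day 2, with 27 reads each at day 12 and a value of 535 against 56.0. With 3 reads as the limit that a count of 0 allows, each was 7.44-fold higher at day 12 by share of reads. With the error of the 27 reads counted as well, the exact 95% interval began at 5.65. These limits cover counting error only, on the pooled reads of a day, and not the spread between libraries. The highest of those at the floor of day 12 had 6 reads in the single day 2 library and 12 in the pair, at a value of 392 against 53.5. With the same limit for a count of 0 it was 7.26-fold lower at day 12, with an interval from 5.32. The next had 17 reads, all in the pair and none in the single library, and was 6.85-fold lower in this way, with an interval from 4.99. None of these 4 was called, with unadjusted p of 0.00273 and 0.00296 for the former pair and 0.0115 and 0.0229 for the latter in the authors' deposited table.

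Libraries of 1 day also shared only some of their circRNAs. Within day 2, the single library had reads for 1239 circRNAs and the pair for 1436, and 790 were in both, which is 63.8% of the former and 55.0% of the latter. The 449 found in the single library but not in the pair had a median of 2 reads and a highest of 15. The 646 found in the pair alone had a median of 2 and a highest of 19. Overlap depends on depth, which was lower here than between the days, so these shares are not compared with those above. The depth of day 12 was greater, and at the 50112 reads of day 2 its reads would cover 1991 circRNAs in expectation against the 1885 of day 2. Reads sampled at 19996 give 1239 circRNAs in the single day 2 library and 1299 in the pair.

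**Figure D3:**
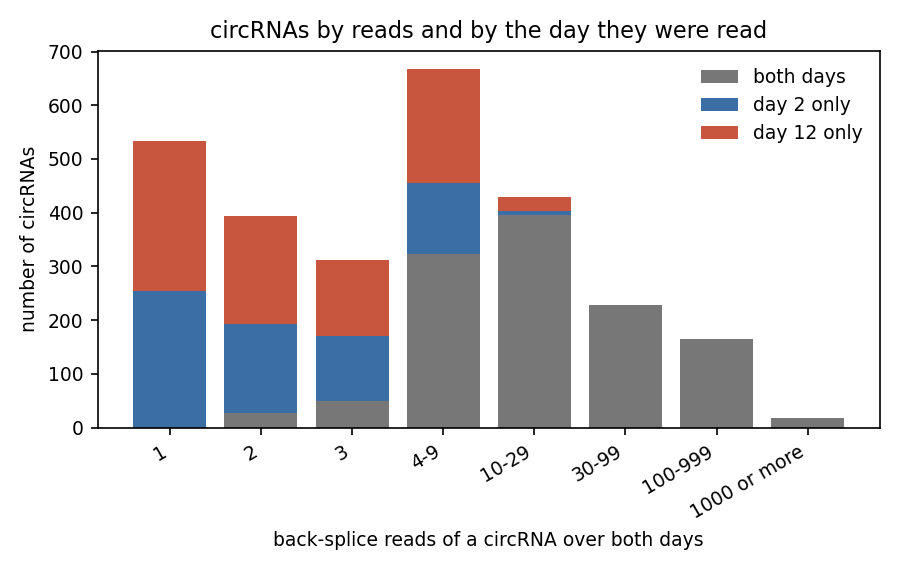
Number of circRNAs (vertical axis) by their back-splice reads over both days (horizontal axis, classes of reads), stacked by whether the reads lay on both days, at day 2 only or at day 12 only. The 533 circRNAs with 1 read lie on 1 day by necessity, and above 29 reads all circRNAs lie on both days.

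Over all circRNAs the median log2 ratio of day 12 over day 2 was 0.26, with 1536 higher and 1211 lower. The totals of the deposited values differed by themselves, by 0.18 on the log2 scale, and relative to them the median was 0.08. This difference of totals was not the same for the parts of day 2: it was 0.01 against the single library and 0.27 against the pair. The median was 0.14 for the 1206 read on both days, with 674 higher and 532 lower, and -0.03 relative to the totals, with 590 higher and 616 lower. For these the direction thus depended on the scaling.

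Across the 5 abundance classes, the ratios spread most in classes 3 and 4 and least in class 1. Class 1, with 550 circRNAs of 1 or 2 reads, had a median log2 ratio of 0.35, which is the value of a single read at day 12 against none. It is a matter of steps: 279 stood at the floor of day 2 and 269 at the floor of day 12. In class 2, with 2 or 3 reads, the median was 0.67, with 297 at the floor of day 2 and 204 at that of day 12. In class 3, with 3 to 6 reads, it was 0.25, and the SD across circRNAs was 1.06. In class 4, with 6 to 18 reads, it was 0.16 with an SD of 1.14, and -0.02 relative to the totals.

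Class 5, with 549 circRNAs of 18 to 5408 reads, held 91.4% of the day 2 reads and 90.8% of the day 12 reads. Its median log2 ratio was 0.24, a 1.18-fold difference, with 361 higher and 188 lower. Relative to the totals the median was 0.06, with 297 higher and 252 lower. Against the single day 2 library the median of class 5 was 0.12 and against the pair 0.36. The middle 50% of the ratios lay between -0.21 and 0.63. A 2-fold difference was seen in 70 circRNAs higher and 32 lower at day 12, or 51 and 38 relative to the totals. For the 100 most abundant the median was 0.21, with 77 higher, and 0.04 relative to the totals, with 54 higher. Of these 100, 1 was at least 2-fold higher and 3 at least 2-fold lower at day 12, or none and 3 relative to the totals.

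**Figure D4:**
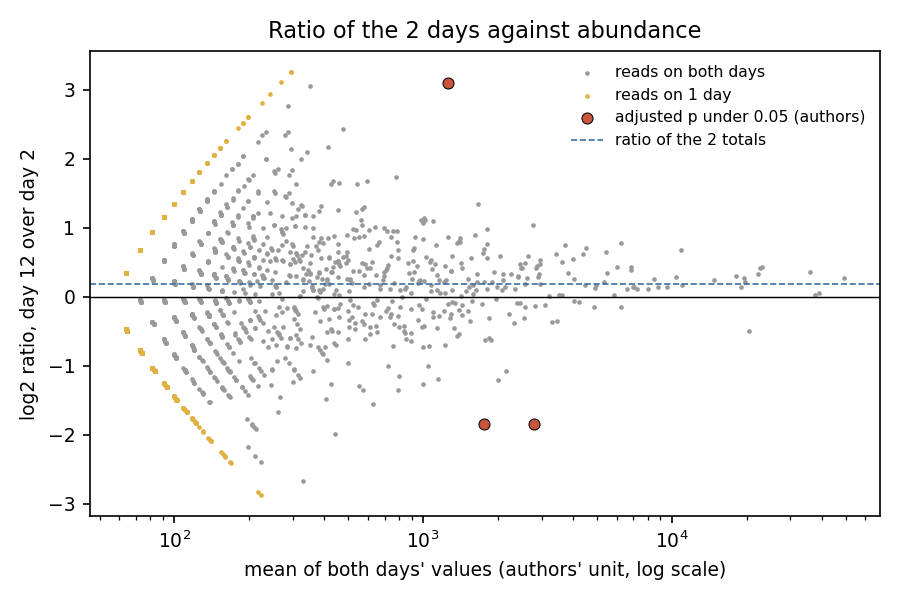
Log2 ratio of day 12 over day 2 (vertical axis) against the mean of both days' values in the authors' unit (horizontal log axis), 1 point per circRNA, with those read on 1 day and the 3 called ones in their own colours. The solid line marks equal values and the broken line the log2 ratio of the totals, 0.18; the points on the outer rays are circRNAs read on 1 day, and the ratios narrow toward the abundant end.

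The classes depended on which day sorted the circRNAs. Sorted by the day 2 value, class 4 had a median log2 ratio of -0.55, and sorted by the day 12 value it had 1.03. For class 5 these were 0.06 and 0.36. Class 1 had 0.67 and -0.80, and class 3 had -0.49 and 0.67, whereas class 2 had 0.35 by either day. The sign in classes 1, 3 and 4 thus changed with the sorting day, and that in classes 2 and 5 did not. For class 1 the sorting fixed the sign. With 862 circRNAs at the floor of day 2 and 679 at that of day 12, class 1 lay wholly at the floor of the sorting day. The 0.35 of class 2 is the value of a single read at day 12 against none, and not a sign of stability.

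The spread between the days and that between the parts of day 2 are given side by side for the abundant circRNAs. They are not like for like: the former sets 3 libraries against 3 and the latter 1 against 2, so that equal spreads would not show that the days are alike. As shares of reads, the 100 most abundant had a median absolute log2 ratio of 0.21 between the days, and of 0.27 between the single library and the pair of day 2. Counting error alone gives a median SD of 0.15 for the former and 0.22 for the latter, which rest on fewer reads. An SD and a median absolute ratio are unlike measures and are not to be set against each other. The root mean square was 0.44 for each, with counting errors of 0.15 between the days and 0.23 within day 2. Of the 100, 39 lay beyond 2 counting SD between the days against 29 within day 2. At least a 2-fold difference was seen for 3 of the 100 between the days and for 5 between the parts of day 2. For the 10 most abundant, the root mean square of the log2 ratios was 0.26 between the days and 0.19 within day 2, with counting errors of 0.05 and 0.08. At ranks 101 to 200, the median absolute log2 ratio was 0.39 between the days and 0.59 within day 2, with median counting SDs of 0.26 and 0.41. The root mean square there was 0.67 and 1.01, with counting errors of 0.27 and 0.44. At least a 2-fold difference was seen for 7 of these 100 between the days and for 28 within day 2. The largest absolute log2 ratio was 3.21 between the days and 3.46 within day 2. Because the libraries of day 12 cannot be taken apart, its own spread is unknown.

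**Figure D5:**
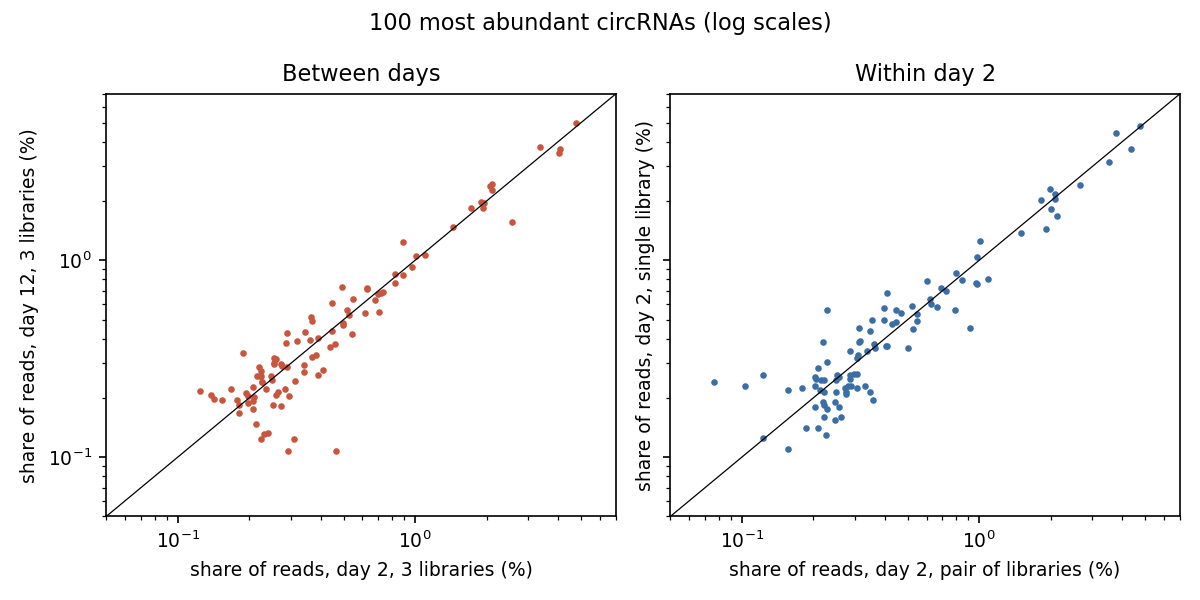
Share of back-splice reads in % of the 100 most abundant circRNAs on log axes: day 12 against day 2 (left) and the single day 2 library against the day 2 pair (right), with the line of equal shares. The median absolute log2 ratio is 0.21 on the left, where 39 of 100 lie beyond 2 counting SD, and 0.27 on the right, where 29 do and fewer reads and libraries stand behind each point.

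Across the 1206 circRNAs read on both days, the log2 values of the days had a Pearson correlation of 0.90 and a Spearman correlation of 0.77. For the 100 most abundant these were 0.94 and 0.87, and between the reads of the single library and of the pair of day 2, for the same 100, they were also 0.94 and 0.87. The points share their libraries and are not independent.

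Factors known to make, block, export, mark, bind or degrade circRNAs, pooled whichever way they act, were sought in the linear RNA libraries of the series. The list holds 49 genes, of which 41 were listed there, each taken by its most abundant transcript. The 8 symbols not found there were mbl, SRp54, mle, Mettl3, vir, PNPase, RNaseZ and imp. None was called in the authors' deposited table, where 13 of 5954 genes taken the same way (0.218%) were; the lowest adjusted p of the list was 0.129. Before adjustment 6 were higher and 2 lower at day 12 with a p under 0.05, against 802 (13.5%) and 540 (9.07%) of the 5954 genes. For 41 genes, the count of higher ones is near that background and the count of lower ones is under it. The median log2 ratio of the 41 was -0.00, with 19 higher and 22 lower, against 0.04 over all genes listed. These counts rest on the choice of transcript. With the sum of a gene's transcripts the log2 ratio of Adar went from -0.75 to 0.47 and that of qkr58E-1 from -0.62 to 0.14. Rm62 went from -0.098 to 0.019 and Nxt1 from -0.003 to 0.011. Hrb87F alone went the other way, from 0.01 to -0.03. Whether more of the listed genes were higher or lower thus changed with this choice.

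The lowest p belonged to Sf3b1, of the U2 snRNP that recognises the branch point, at 28.2 at day 2 and 19.8 at day 12. Depletion of spliceosome components has been reported to shift fly transcripts toward circles. Among factors of back-splicing, the SR protein SF2 was at 194 and 215, and the STAR family protein how, whose mammalian relative Quaking promotes circles, was at 2.85 and 3.03. Ythdf, a reader of N6-methyladenosine, was at 96.8 and 108, and fl(2)d, of the enzyme complex that writes this mark, at 37.6 and 41.1. The helicase Upf1 of nonsense-mediated decay was at 7.29 and 5.77, CG7372 at 51.5 and 59.3 and the export receptor sbr at 24.96 and 25.5. In the authors' deposited table these 8 had p-values from 0.00301 to 0.0417 before adjustment and from 0.129 to 0.287 after it. The helicase Hel25E, reported to act in the export of circRNAs by length, was at 409.2 and 408.5, and gw, reported to promote their decay in fly cells, at 111 and 118, where the authors' deposited table gives adjusted p-values of 0.722 and 0.455.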

How the data were processed

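RNA was extracted with Trizol, per the labels' protocols. HISAT2, StringTie, STAR and DESeq2 and the genome build dm6 are named in the submitters' processing notes; the sources used here give neither versions nor roles. The signal values deposited by the authors are 1 mean per day over 3 libraries. The ratio of the steps found in them, 19.1 to 17.8, equals the sixth root of 1.5 within 1.22e-15, a form that a ratio to a geometric mean over 6 libraries can take; the sources used here do not state the scaling. The deposited log2 fold change differed from the log2 ratio of the day values by at most 0.02. Adjusting the authors' deposited p-value over the 2747 circRNAs by the Benjamini-Hochberg method gives back their adjusted one. The sources used here do not name the test, and with 1 value per day none was refitted. The calls therefore measure the spread between libraries as the authors' test saw it, which may be technical.

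Log2 ratios, shares, exact (Clopper-Pearson) binomial intervals and expected detections at equal reads were computed with Python 3.11.15, NumPy 2.4.6, pandas 2.3.3 and SciPy 1.17.1. Steps were accepted within a relative tolerance of 1e-09. On simulated data for the same comparison, built from the same steps and added reads, the reads of 2747 of 2747 circRNAs were recovered. That checks the computation only: it cannot test whether steps are reads or whether day 2 splits into a single library and a pair. The 5 abundance classes are of equal size by the mean of both days. Named are the called circRNAs, the 10 most abundant, the 2 highest of those read on 1 day in each direction, the extreme ratios of the 100 most abundant, and the linear RNA factors with the lowest p, of which 8 rather than 5 are given, a number chosen after their values were seen. Numbers are printed for called circRNAs only. The members and the gene list were chosen with earlier results of these data known, and the split of day 2 into library parts was read from the values.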

Additional observations from a re-analysis of the deposited data

How the results depend on the processing

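No paired analysis was possible because the table holds 1 value per day and no value of a numbered replicate; for the same reason no replicate could be left out in turn, other than by the parts of day 2. The 3 calls were also 3 at an adjusted p under 0.1, with a 2-fold minimum, and with the p adjusted over circRNAs at or above the median mean; they were 1 at an adjusted p under 0.01 and 61 at an unadjusted p under 0.05. The median log2 ratio of 0.26 became 0.14 for circRNAs above the floor on both days, 0.082 as a share of totals, 0.40 and 0.34 with the floor subtracted and a pseudocount of 1 or of 50% of the lowest value, and 0.42 against the single day 2 library. With circRNAs sorted by the day 2 value, classes 1 to 5 had medians of 0.67, 0.35, -0.49, -0.55 and 0.060; sorted by the day 12 value they had -0.80, 0.35, 0.67, 1.03 and 0.36. As a share of totals class 5 had 0.064. Against the single day 2 library classes 1 to 5 had 0.42, 0.74, 0.74, 0.53 and 0.12; against the pair class 3 had 0.64 and class 5 had 0.36. With the floor subtracted, the 10 highest held 29.0% at day 2 and 28.8% at day 12 and the 100 highest 67.6% and 67.1%. With the floor kept, the single day 2 library gave 25.4% and 59.5%, against 24.95% and 58.5% for all of day 2. By reads, without the floor, that library gave 28.9% and 67.2%. Also with the floor kept, a ranking by both days gave 59.2% for the 100 highest at day 12, against 59.5%. circRNAs of day 2 only, 679, were 76 with detection at 10 reads, 319 by the single library and 419 by the pair. Those of day 12 only, 862, were 164 with detection at 10 reads. Detection at 10 reads means at least 10 reads on 1 day and fewer than 10, not always 0, on the other. With no reads on the other day, these were 8 at day 2 and 26 at day 12. The 386 circRNAs at least 2-fold higher at day 12 were 236 as a share of totals, 889 at 1.5-fold and 646 against the single library; the 349 lower were 625 at 1.5-fold and 212 at or above the median mean. Apart from the sign of class 1 by sorting day, which the floor fixed, the causes of these shifts were not tested. Depth limits the table, as do the lack of replicate values and a test that is not named: 73.3% of circRNAs had fewer than 12 reads.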

Other observations

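The deposited p-values of circRNAs with few reads came in few distinct values. The 279 circRNAs with 1 read, at day 12, had 1 p between them, 0.826, in the authors' deposited table. The 150 with 1 read in the day 2 pair had 0.761, and the 104 with 1 read in the single day 2 library had 0.768. One adjusted p, 0.910, was shared by 2492 of the 2747 circRNAs.

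The circRNA numbers fall into successive runs, with ends set by the reads. The first run held 1082, the second, of the single day 2 library, 564, the third 239 and the day 12 run 862. The first run ends before the first number without reads in the pair. It can therefore include circRNAs first found in the single library but also read in the pair. If runs follow libraries, 1082 is an upper limit for the first and 564 a lower limit for the second.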
